A study of Rattus norvegicus with 6 samples.

Results

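The genes described here are 10 targets of Wnt signalling known from the hepatocytes around the central vein, or from Wnt-responsive tissue in general: Glul, Oat, Cyp2e1, Rgn, Axin2, Notum, Rnf43, Znrf3, Lgr5 and Tbx3. They were chosen by name, with earlier results of these data known. A probe was assigned to a gene through the RefSeq accession that the array files give for it. Of the 10 genes, 9 had a probe. They were read by 15 of the 61657 probes on the array that were not controls. Znrf3 matched no probe and was not analysed here. All 9 genes with a probe passed the filter on dim probes through at least 1 probe, and 13 of the 15 probes passed it.

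Liver RNA came from 6 male Sprague-Dawley (Crl:CD(SD)) rats bought at 5 weeks of age and kept on a basal diet. In the ADBAQ group, 3 rats received 1-amino-2,4-dibromoanthraquinone, an anthraquinone dye intermediate, at 1000 mg/kg/day, and in the vehicle group 3 rats received vehicle alone. The labels give purified water as the vehicle where the treatment protocol gives corn oil, and 28 days of dosing in the design text where the protocol gives 9 weeks. Each rat gave 1 array, a 1-colour Agilent array in which the brightness of a probe reads the amount of a transcript in total liver RNA.

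Wnt proteins bind Frizzled receptors together with the co-receptors Lrp5 and Lrp6, and this keeps beta-catenin (Ctnnb1) from being degraded by a complex built on Axin and Apc, so that beta-catenin can act with TCF/LEF factors on its target genes. In the liver lobule, endothelial cells of the central vein are a source of Wnt ligands and of R-spondin 3, and the hepatocytes nearest to the vein respond with a programme of their own. That programme includes glutamine synthesis, ornithine breakdown and some cytochromes P450. Several targets act back on the pathway: Axin2 in the degradation complex, Notum on the ligand, and Rnf43 and Znrf3 on the receptors.

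Promoter sequence is shown for the members in whose 250 bases before the start site a short TCF/LEF-type motif was found, together with Oat, which had none and which had one of the largest differences between groups among the members. The motif searched was CTTTG followed by AA, AT, TA or TT, on either strand, and matches are in capitals. A match on the reverse strand reads as its reverse complement. The sequences are those of RefSeq on the GRCr8 build, written 5′ to 3′ on the strand of the gene, and end at the base before the start site. They lie at chr10:94398535-94398784 on the plus strand for Axin2, chr1:205269717-205269966 on the plus strand for Cyp2e1, chr13:68519250-68519499 on the plus strand for the more upstream of 2 start sites of Glul, and chr1:196797755-196798004 on the minus strand for Oat.
Axin2: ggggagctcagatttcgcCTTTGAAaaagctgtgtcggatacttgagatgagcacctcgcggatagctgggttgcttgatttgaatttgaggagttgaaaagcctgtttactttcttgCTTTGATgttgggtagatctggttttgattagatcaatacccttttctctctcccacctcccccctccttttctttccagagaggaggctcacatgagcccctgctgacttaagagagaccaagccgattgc
Cyp2e1: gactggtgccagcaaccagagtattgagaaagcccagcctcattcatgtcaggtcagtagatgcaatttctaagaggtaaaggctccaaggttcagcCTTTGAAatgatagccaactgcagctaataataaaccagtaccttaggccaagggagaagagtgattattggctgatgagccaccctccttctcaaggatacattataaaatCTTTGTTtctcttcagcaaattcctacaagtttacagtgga
Glul: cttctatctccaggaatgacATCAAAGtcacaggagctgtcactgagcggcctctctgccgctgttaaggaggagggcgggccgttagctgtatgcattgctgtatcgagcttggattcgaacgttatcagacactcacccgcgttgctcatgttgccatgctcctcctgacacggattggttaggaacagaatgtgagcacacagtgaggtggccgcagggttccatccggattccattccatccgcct
Oat: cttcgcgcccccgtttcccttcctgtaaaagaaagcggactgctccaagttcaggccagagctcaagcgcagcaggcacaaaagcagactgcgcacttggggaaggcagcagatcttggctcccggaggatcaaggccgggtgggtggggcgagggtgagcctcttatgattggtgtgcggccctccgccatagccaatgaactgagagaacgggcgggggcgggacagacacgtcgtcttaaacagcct
The Axin2 window held 2 matches, 232 and 132 bases before the start, and the Cyp2e1 window held 2, at 153 and 41 bases. The upstream Glul window held 1 match on the reverse strand, 230 bases before the start. No match was found in the window of the other Glul start or in those of Oat, Rgn and Rnf43. Among the 33469 rat promoter windows of the same length, 14.9% held at least 1 match and 1.73% held 2 or more. Of the 7 member windows, covering 6 of the 10 genes, 3 held a match. A match is a run of letters and was not shown here to be bound.

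The groups were compared on the processed signal of each probe as a multiple of its array's 75th percentile, called the scaled signal below, and on the log2 of that value. The percentile itself was 433 to 461 on the vehicle arrays and 570 to 643 on the ADBAQ arrays. On each array 62.1% to 65.3% of the probes stood well above background and none was saturated, and arrays of a group correlated at 0.989 to 0.993. All vehicle arrays were on one slide and all ADBAQ arrays on another, with a scan day each. The effects of group, slide and scan day therefore cannot be told apart. Alb, the albumin gene and the defining transcript of hepatocytes, was measured at 1065, 989 and 1050 times the percentile in vehicle and 758, 857 and 824 times in ADBAQ. In bulk liver, fewer cells of a type and less RNA per cell cannot be told apart, and this holds for every value that follows. Scaled signals of different genes come from different probes and are not set against each other, apart from sums over lists of marker genes. In such a sum the brightest probes weigh most.

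Of the 9 measured members, 5 were lower after ADBAQ at an adjusted p under 0.05 (limma), none was higher and 4 did not pass. Over all 11344 named genes tested, 11.3% passed as lower, 9.05% as higher and 20.3% in either direction. Since the members were chosen with earlier results of these data known, these shares are a description and not a test of an excess. The 5 members that fell were Notum, Oat, Glul, Cyp2e1 and Rnf43. With the arrays scaled to their spike-in controls in place of the percentile, only Notum and Oat among them remained lower at that threshold, while Axin2 and Tbx3 passed as higher. The median log2 difference over the 9 genes was -0.55, against -0.04 over all genes. In 5 of the 9 genes the groups did not overlap, which was so for 46.3% of all genes. Counted by probe, 7 of the 13 kept member probes passed, against 18.4% of all probes kept. These 7 probes read the same 5 genes, with Glul and Oat counted through 2 probes each.

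**Figure D1:**
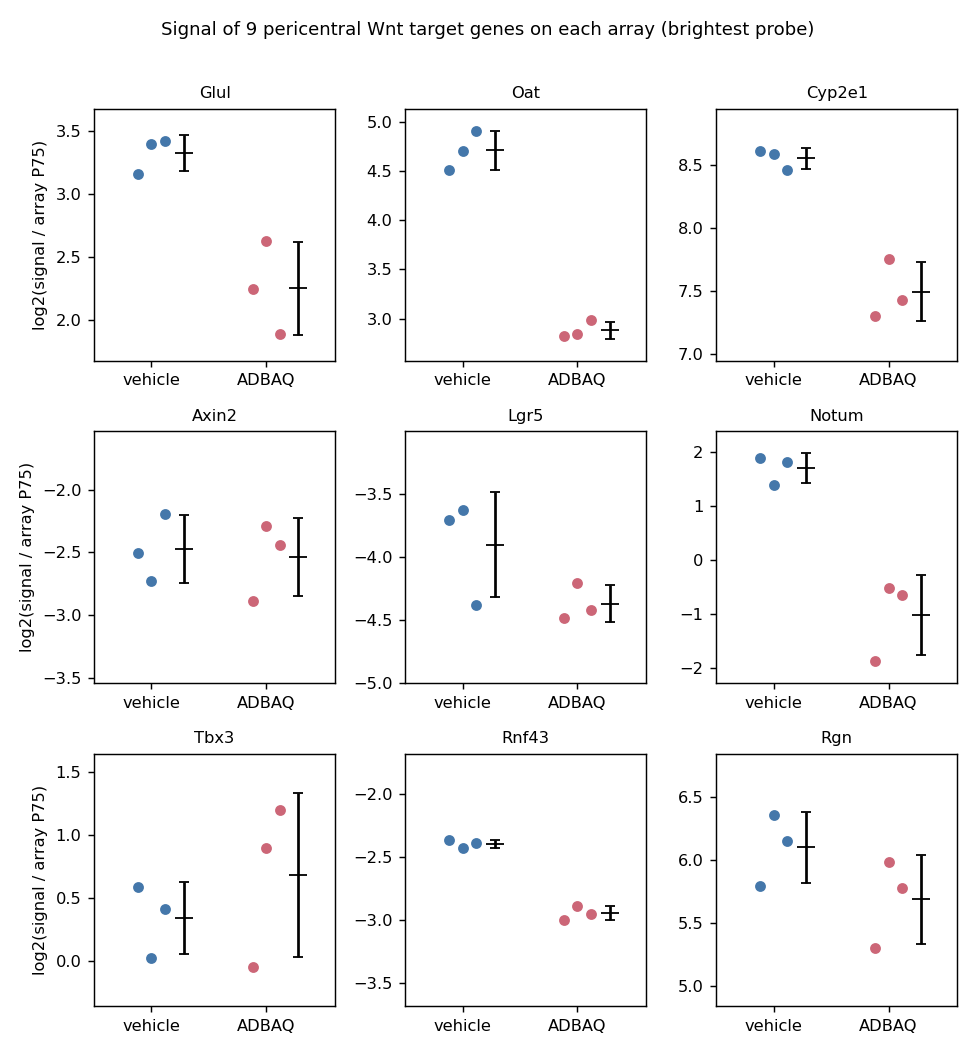
Log2 scaled signal of the 9 measured Wnt target genes (vertical axes, log2 of the signal over the array's 75th percentile) on the 3 vehicle and 3 ADBAQ arrays, 1 point per rat with the group mean ± SD beside the points. In the panels of Oat, Notum, Glul, Cyp2e1 and Rnf43 all ADBAQ points lie under all vehicle points, while in those of Axin2, Lgr5, Tbx3 and Rgn the groups overlap.

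Among the metabolic members, Oat differed most. Oat encodes ornithine aminotransferase, the mitochondrial enzyme that turns ornithine into glutamate semialdehyde and that lies next to the central vein together with glutamine synthetase. Its scaled signal was 22.8, 26.1 and 30.1 in the vehicle rats and 7.10, 7.16 and 7.91 in the ADBAQ rats. The ADBAQ rats lay close together and all were far under the lowest vehicle rat. The group means were 4.71 ± 0.20 and 2.88 ± 0.09 (log2, SD, n = 3), and Oat fell by 1.83 ± 0.13 on the log2 scale (SE; adjusted p = 0.00156, limma), a 3.55-fold lower level; scaled to spike-in controls it was still lower, at -1.07 (adjusted p = 0.000513). A second, dimmer Oat probe read 1.28, 1.40 and 1.62 in vehicle and 0.365, 0.370 and 0.436 in ADBAQ. Both probes thus gave nearly the same difference, -1.83 and -1.87 (SE 0.13 for each).

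Glul encodes glutamine synthetase, the enzyme that joins ammonia to glutamate and the classical marker of the hepatocytes that touch the central vein. Its scaled signal was 8.95, 10.56 and 10.71 in vehicle and 4.74, 6.18 and 3.70 in ADBAQ. The groups did not overlap, and the ADBAQ rats were more spread out than the vehicle rats, with log2 means of 3.33 ± 0.14 and 2.25 ± 0.37 (SD, n = 3). The difference was -1.07 ± 0.20 (SE; 95% interval -1.55 to -0.60; adjusted p = 0.0181, limma), or 2.10-fold lower, and it was -0.32 (adjusted p = 0.150) when scaled to spike-in controls. A second probe read 6.25, 7.35 and 7.35 in vehicle and 3.21, 4.29 and 2.51 in ADBAQ, a difference of -1.10 ± 0.20 (SE; adjusted p = 0.0185, limma). On both probes ADBAQ replicate 3 was the lowest and replicate 2 the highest of its group. With single arrays left out, the Glul call held in 3 of 6 cases; the adjusted p was 0.0533 without vehicle replicate 2, 0.0563 without vehicle replicate 3 and 0.0606 without ADBAQ replicate 1.

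Cyp2e1 encodes the pericentral cytochrome P450 that oxidises ethanol and small solvents. Its scaled signal was 391, 383 and 351 in vehicle and 157, 216 and 171 in ADBAQ. All ADBAQ rats lay under all vehicle rats. The log2 means were 8.55 ± 0.08 and 7.49 ± 0.23 (SD, n = 3), and the difference was -1.06 ± 0.14 (SE; adjusted p = 0.00813, limma), or 2.08-fold lower; scaled to spike-in controls it was -0.30 (adjusted p = 0.0872). The call held with each of the 6 arrays left out, with a highest adjusted p of 0.0319.

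Rgn encodes regucalcin, a calcium-binding gluconolactonase abundant in hepatocytes. Its scaled signal was 55.5, 81.7 and 70.9 in vehicle and 39.3, 63.3 and 54.7 in ADBAQ. The 2 highest ADBAQ rats lay within or near the vehicle range, so the groups overlapped. The difference was -0.41 ± 0.22 (SE; 95% interval -0.95 to 0.12; adjusted p = 0.229, limma), and it was 0.34 when scaled to spike-in controls.

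Of the members that act back on the pathway, Notum differed most, and no member differed more. Notum encodes a secreted enzyme that removes the lipid from Wnt proteins and so inactivates them. The scaled signal was 3.73, 2.62 and 3.55 in vehicle and 0.272, 0.694 and 0.638 in ADBAQ. The highest ADBAQ rat was well under the lowest vehicle rat, and ADBAQ replicate 1 stood under the others of its group. The log2 means were 1.71 ± 0.28 and -1.02 ± 0.75 (SD, n = 3). Notum fell by 2.72 ± 0.37 on the log2 scale (SE; 95% interval -3.63 to -1.82; adjusted p = 0.00924, limma), a 6.61-fold lower level, and it was at -1.97 (adjusted p = 0.00266) when scaled to spike-in controls. Ordered by log2 difference from the lowest among the 11344 named genes, Notum was at place 30, Oat at 83, Glul at 334, Cyp2e1 at 339 and Rnf43 at 1230.

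Rnf43 encodes a membrane ubiquitin ligase that takes Frizzled receptors off the cell surface. Its brighter probe read 0.194, 0.186 and 0.191 in vehicle and 0.125, 0.135 and 0.129 in ADBAQ. The rats of each group lay very close together, with log2 means of -2.40 ± 0.03 and -2.95 ± 0.06 (SD, n = 3), and the groups did not overlap. The difference was -0.55 ± 0.08 (SE; adjusted p = 0.0107, limma), or 1.47-fold lower, and turned to 0.20 (adjusted p = 0.0849) when scaled to spike-in controls. A second, dimmer probe, well above background on 5 of the 6 arrays, read 0.0675, 0.0526 and 0.0255 in vehicle and 0.0412, 0.0464 and 0.0381 in ADBAQ. There the groups overlapped (-0.10 ± 0.35, SE; adjusted p = 0.855, limma), and the mean of both probes gave -0.33 (adjusted p = 0.261, limma).

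Axin2 encodes a scaffold of the complex that degrades beta-catenin and is widely used as a general readout of Wnt signalling. The scaled signal was 0.176, 0.151 and 0.219 in vehicle and 0.135, 0.205 and 0.184 in ADBAQ. The rats of the groups were interleaved. The difference was -0.07 ± 0.20 (SE; 95% interval -0.56 to 0.42; adjusted p = 0.842, limma), an interval that leaves room for a change in either direction. It changed sign without vehicle replicate 3 (0.07) and without ADBAQ replicate 1 (0.11), and scaled to spike-in controls it was 0.69 (adjusted p = 0.0143).

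Lgr5 encodes a receptor for R-spondins and marks Wnt-responsive cells in several organs. It was read near the limit of detection: of its 3 probes, 2 were not well above background on any array, and the third read signals of 20.8 to 37.5 where the dimmest probes above background on an array were at 11.9 to 13.8. The scaled signal was 0.0769, 0.0812 and 0.0480 in vehicle and 0.0447, 0.0544 and 0.0467 in ADBAQ. Vehicle replicate 3 lay among the ADBAQ rats. The difference was -0.47 ± 0.22 (SE; 95% interval -0.99 to 0.06; adjusted p = 0.176, limma). It passed without vehicle replicate 3 (-0.71, adjusted p = 0.0339, limma) and with normexp background correction (-0.33, adjusted p = 0.0358, limma). Scaled to spike-in controls it was 0.29. The offset of 50 used with normexp is larger than these Lgr5 signals. Sost and Tle4, also dim and named after their values were seen, went from 0.01 to -0.32 and from -0.12 to -0.33 with normexp. Both passed as lower there (adjusted p = 0.0321 and 0.0140, limma). Sfrp2, dim as well and named in the same way, went from -0.47 to -0.45, and Wnt9b stayed at -0.48. The SE of the Lgr5 difference fell from 0.22 to 0.10 with normexp. What the offset contributed to the Lgr5 value was not tested.

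Tbx3 encodes a T-box transcription factor expressed in hepatocytes and their precursors. Its brighter probe read 1.50, 1.02 and 1.33 in vehicle and 0.968, 1.86 and 2.30 in ADBAQ. ADBAQ replicate 1 was the lowest of the 6 rats and the other ADBAQ rats were the highest. The difference was 0.34 ± 0.34 (SE; 95% interval -0.47 to 1.15; adjusted p = 0.504, limma). The second probe read 0.582, 0.414 and 0.571 in vehicle and 0.610, 0.849 and 0.889 in ADBAQ. There the groups did not overlap, with a difference of 0.58 ± 0.20 (SE; 95% interval 0.10 to 1.07) that missed the threshold (adjusted p = 0.0927, limma). Tbx3 was the measured member with the highest log2 difference, and scaled to spike-in controls it was at 1.10 (adjusted p = 0.0199).

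The scaling between arrays decides what is read from the smaller differences. The spike-in controls are RNAs added in known amounts, and scaling to them raised the median log2 difference over all named genes from -0.04 to 0.72. Relative to that median, every gene keeps its place. Under the spike-in scaling Notum and Oat were lower, Axin2 and Tbx3 were higher, and the other 5 members did not pass. Glul and Cyp2e1 kept a negative sign there, while Rnf43, Lgr5 and Rgn turned positive. Relative to the median gene, Glul was at -1.03, Oat at -1.79, Cyp2e1 at -1.02 and Axin2 at -0.03 on the log2 scale.

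**Figure D2:**
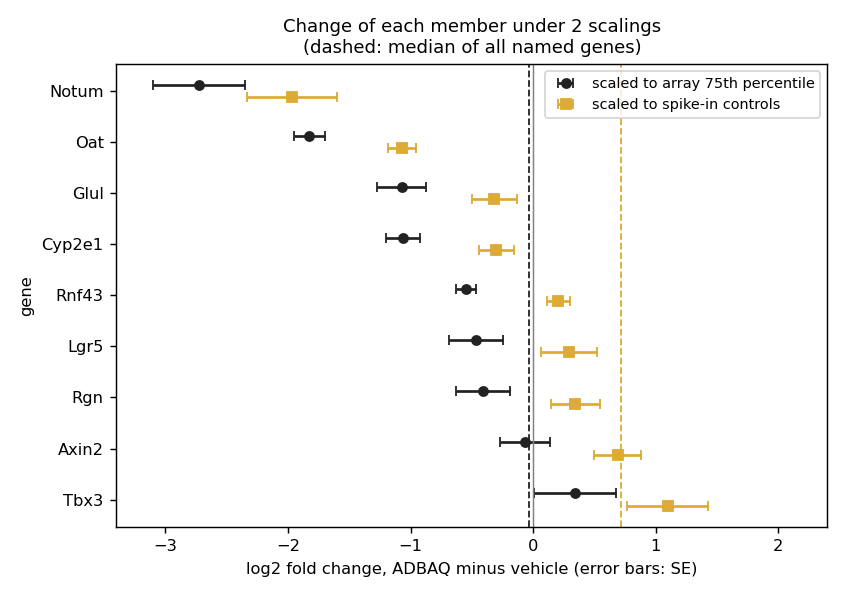
Log2 difference between ADBAQ and vehicle (horizontal axis, with SE bars) for the 9 measured Wnt target genes, under scaling to the array's 75th percentile and under scaling to spike-in controls, with a dashed line at the median of all named genes under each. Notum and Oat lie under 0 with both scalings, Rnf43, Lgr5, Rgn and Axin2 change sign, and Tbx3 lies above 0 with both.

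The ligand genes were mostly near or under the detection limit in whole liver. Of 26 ligand, R-spondin and ligand-processing genes listed, 23 had a probe and 9 passed the filter; 4 were lower and none higher, with a median log2 difference of -0.16, and under spike-in scaling 8 were higher and none lower. Wnt9b, a ligand made by central vein endothelium, read 0.0802, 0.0773 and 0.0770 in vehicle and 0.0557, 0.0585 and 0.0542 in ADBAQ. The groups did not overlap. The difference was -0.48 ± 0.08 (SE; adjusted p = 0.0151, limma) and 0.28 under spike-in scaling, and the second Wnt9b probe that was kept had the opposite sign. Rspo3, the R-spondin that amplifies Wnt signalling around the central vein, read 0.749, 0.700 and 0.828 in vehicle and 0.526, 0.577 and 0.558 in ADBAQ. All ADBAQ rats were under all vehicle rats (-0.45 ± 0.10, SE; adjusted p = 0.0295, limma), though with spike-in scaling the difference was 0.30. Wnt11, a ligand of the beta-catenin independent branch, was at -0.53 ± 0.12 (SE; adjusted p = 0.0343, limma), and Porcn, which attaches the lipid that Wnt proteins need for secretion, was at -0.31 ± 0.08 (SE; adjusted p = 0.0441, limma). Both were positive under spike-in scaling, at 0.23 and 0.45. With each array left out in turn, 0 to 2 ligand genes passed as lower, and none did without ADBAQ replicate 1 or 3. Wnt9b passed in 4 of these 6 cases, Rspo3 and Wnt11 in 1 each and Porcn in none. Wnt2 matched no probe.

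Of the wider endothelial markers, 1 of 9 was lower and none higher, none passed with any single array left out, and under spike-in scaling 8 were higher and none lower. Their summed scaled signal was 49.3 to 54.4 in vehicle and 40.9 to 50.2 in ADBAQ. The 6 measured markers of central vein endothelium summed to 2.14 to 2.27 in vehicle and 1.89 to 1.98 in ADBAQ, with a median log2 difference of -0.32; under spike-in scaling 5 of the 6 were higher and none lower. The 2 of them that passed, Wnt9b and Rspo3, are the ligand genes themselves. The other 4, named after their values were seen, did not pass: Lhx6 was at -0.60 ± 0.27 (SE; adjusted p = 0.168, limma), below both ligand genes, Kit at -0.18, Thbd at 0.02 and Cdh13 at 0.27. With normexp background correction Lhx6 passed, at -0.48 (adjusted p = 0.0436, limma). That setting also raised the number of all named genes that passed as lower from 1281 to 2655. The part of endothelial cells in the ligand values was not tested.

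Of 17 receptor and co-receptor genes listed, 12 passed the filter; 5 were lower and none higher, with a median of -0.25, while under spike-in scaling 7 were higher and 1 lower. Ror1, a receptor tyrosine kinase for Wnt5a, read 0.425, 0.420 and 0.467 in vehicle and 0.0780, 0.158 and 0.136 in ADBAQ. It fell by 1.88 ± 0.26 on the log2 scale (SE; adjusted p = 0.00945, limma) and was the receptor that was also lower under spike-in scaling, at -1.12. Lrp5, a Wnt co-receptor, read 6.93, 6.24 and 5.93 in vehicle and 2.42, 3.61 and 2.95 in ADBAQ. Its groups lay apart (-1.11 ± 0.16, SE; adjusted p = 0.0103, limma; -0.35 under spike-in scaling). Fzd1, a Frizzled receptor, read 5.17, 5.39 and 5.79 in vehicle and 1.79, 3.20 and 1.51 in ADBAQ, a difference of -1.41 ± 0.28 (SE; adjusted p = 0.0212, limma). Lgr4, the R-spondin receptor of hepatocytes, read 3.83, 4.16 and 6.46 in vehicle and 2.58, 2.94 and 2.18 in ADBAQ, a difference of -0.88 ± 0.22 (SE; adjusted p = 0.0430, limma). The groups did not overlap in either gene. The fifth receptor that passed, named after its value was seen, was Fzd8 (-0.79 ± 0.12, SE; adjusted p = 0.0119, limma).

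Ror1, Lrp5 and Fzd8 passed with each of the 6 arrays left out, but Fzd1 and Lgr4 passed in 1 of 6 cases each, and 3 or 4 receptors passed as lower in each case. Fzd1 passed without ADBAQ replicate 2, and Lgr4 without vehicle replicate 1. One more receptor passed as higher without ADBAQ replicate 2. Fzd4, another Frizzled receptor, and Lrp6, the second co-receptor, did not pass, at -0.03 (adjusted p = 0.927) and -0.26 ± 0.13 (SE; adjusted p = 0.197, limma). Under spike-in scaling they were at 0.73 and 0.50.

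**Figure D3:**
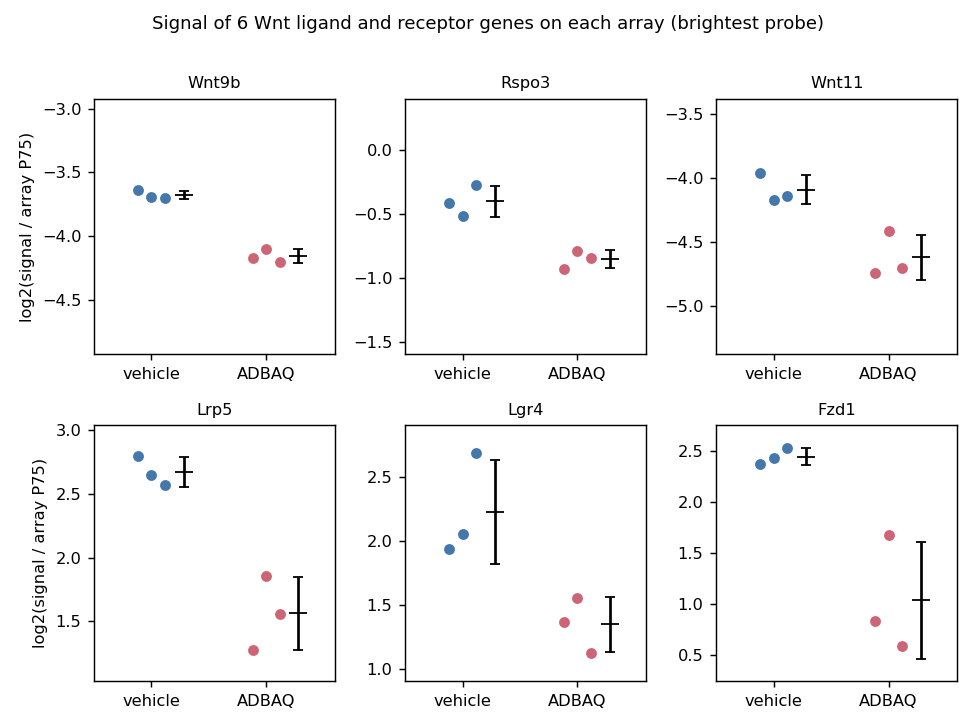
Log2 scaled signal (vertical axes) of 3 ligand genes (Wnt9b, Rspo3, Wnt11) and 3 receptor genes (Lrp5, Lgr4, Fzd1) on the 3 vehicle and 3 ADBAQ arrays, 1 point per rat with the group mean ± SD beside the points. In each panel all ADBAQ points lie under all vehicle points, and the receptor genes are further apart than the ligand genes. All of these genes had passed as lower, so their shared direction follows from the choice of panels. Wnt5b (0.86), Wnt7a (0.55) and Fzd3 (0.67), named after their values were seen, are not drawn. They were higher in ADBAQ without overlap but did not pass (adjusted p = 0.0562, 0.165 and 0.0513, limma). With normexp they were at 0.12, 0.15 and 0.003.

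Inside the cell, the share of core pathway genes that passed was close to that over all genes (20.3%). Of 17 measured genes of the degradation complex and cytoplasmic signalling, 3 were higher, none lower and 14 did not pass, with a median of -0.10; under spike-in scaling 16 of the 17 were higher, and with normexp 2 were higher and 2 lower. In 9 of the 17 the groups did not overlap, against 46.3% of all genes. Ctnnb1, beta-catenin itself, was at -0.12 ± 0.10 (SE; adjusted p = 0.416, limma), Axin1, the constitutive scaffold, at -0.31 ± 0.11 (SE; adjusted p = 0.0912, limma), and Apc, its partner, at -0.10 ± 0.10 (SE; adjusted p = 0.551, limma). These values are of transcripts, and the protein and its place in the cell were not measured. The 3 that passed were Ppp2ca, a phosphatase catalytic subunit (0.54 ± 0.14, SE; adjusted p = 0.0464, limma), Csnk1e, a casein kinase (0.47 ± 0.10, SE; adjusted p = 0.0281, limma), and Tnks, a tankyrase that marks Axin for degradation (0.41 ± 0.08, SE; adjusted p = 0.0242, limma). With normexp Ppp2ca passed (0.64, adjusted p = 0.00721, limma), but Csnk1e (0.20, adjusted p = 0.0901) and Tnks (0.19, adjusted p = 0.0750) did not. Of the 4 kept Csnk1e probes, 3 shared the sign. With single arrays left out, 0 to 2 genes passed as higher: 2 did without vehicle replicate 1, and none did in the other 5 cases.

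Of 11 measured nuclear factors of the pathway, 1 was lower and none higher, and 7 were higher under spike-in scaling. The lower one was Tle2, a Groucho-type co-repressor (-0.82 ± 0.11, SE; adjusted p = 0.00896, limma; -0.06 under spike-in scaling). Of 7 measured genes for inhibitors of Wnt signalling, 1 was higher and none lower. Under spike-in scaling 4 were higher and none lower, and with normexp 1 was higher and 3 lower. The gene that passed was Sfrp5, a secreted Frizzled-related protein that binds Wnt ligands, and it was higher, with readings of 0.0652, 0.0725 and 0.105 in vehicle and 0.225, 0.188 and 0.166 in ADBAQ. The lowest ADBAQ rat was above the highest vehicle rat, and the difference was 1.27 ± 0.21 (SE; adjusted p = 0.0134, limma) as scaled to the percentile but 0.47 with normexp background correction. Tcf7l2, the TCF factor of liver, matched no probe.

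Other known Wnt targets did not share one direction. Of 22 listed, 12 passed the filter, 3 were higher and 4 lower, with a median of 0.17; under spike-in scaling 7 were higher and 1 lower. Sp5, a direct target of beta-catenin in many tissues, read 0.0639, 0.107 and 0.109 in vehicle and 0.0240, 0.0431 and 0.0338 in ADBAQ, where 2 of the 3 arrays were above background. Sp5 passed the filter on dim probes through the vehicle group alone, so its difference of -1.47 ± 0.29 (SE; adjusted p = 0.0217, limma) rests in part on values at background, and with normexp it was -0.70. Ccnd1, the G1 cyclin D1, read 6.02, 8.21 and 6.63 in vehicle and 3.53, 2.88 and 4.48 in ADBAQ. Ccnd1 was lower, at -0.95 ± 0.20 (SE; adjusted p = 0.0244, limma). Higher were Cd44, a hyaluronan receptor (1.02 ± 0.12, SE; adjusted p = 0.00683, limma), and Prom1, a membrane glycoprotein of progenitor and bile duct cells (0.94 ± 0.18, SE; adjusted p = 0.0207, limma). The third that was higher, named after its value was seen, was Birc5 (0.59 ± 0.13, SE; adjusted p = 0.0309, limma), also a proliferation marker. Of the 3 kept Cd44 probes, 2 shared the sign. Cd44 passed with every array left out, Sp5, Ccnd1 and Prom1 in 2 of the 6 cases each, and Birc5 in 1. The count over the list moved between 1 and 3 higher and between 1 and 4 lower, with 1 of each left without vehicle replicate 2 or without ADBAQ replicate 1. Proliferation markers, measured by 8 genes, summed to 1.29 to 2.50 in vehicle and 3.57 to 4.01 in ADBAQ. Of these 8 genes, 2 were higher and none lower, with a median log2 difference of 1.02. With normexp 4 of these 8 were higher, with a median of 0.44, and with spike-in scaling all 8 were. With single arrays left out 0 to 5 proliferation markers passed, and none did without vehicle replicate 2 or any single ADBAQ array. Bile duct markers, which include Prom1, had 3 of 9 higher and 1 lower, with a median log2 difference of 0.62. Their groups did not overlap in 8 of 9 genes, against 46.3% of all genes. Under spike-in scaling 8 were higher and none lower, and with normexp the median was 0.14. Those that passed were Prom1, Cftr (0.83) and Epcam (0.82) as higher and Krt7 (-0.61) as lower; with single arrays left out 0 to 3 passed as higher, and none did without ADBAQ replicate 1 or 3. Krt19 and Spp1, at 0.62 and 1.03, did not pass. The summed signals were 13.7 to 14.9 in vehicle and 13.4 to 14.6 in ADBAQ, most of it from Slc4a2, which did not pass (-0.22, adjusted p = 0.145, limma). These genes were named after their values were seen. The part of either in these values was not tested.

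The 14 other pericentral genes listed also went both ways, with 2 higher, 5 lower and 7 that did not pass, and a median of -0.26; under spike-in scaling 6 were higher and 2 lower. Cyp1a2, a pericentral P450 and a classical target of the Ah receptor, read 37.4, 28.7 and 41.1 in vehicle and 498, 533 and 533 in ADBAQ. It rose by 3.88 ± 0.15 on the log2 scale (SE; adjusted p = 0.000403, limma). The other that was higher was Rhbg, a pericentral ammonium transporter, with 2.44, 3.16 and 2.28 in vehicle and 4.61, 7.06 and 7.84 in ADBAQ (1.29 ± 0.23, SE; adjusted p = 0.0170, limma). The groups did not overlap, but Rhbg missed the threshold without vehicle replicate 3, ADBAQ replicate 2 or ADBAQ replicate 3, with a highest adjusted p of 0.0553. Scaled to spike-in controls, Rhbg was at 2.04. Rhbg and Glul both serve the handling of ammonia by pericentral hepatocytes, and they differed in opposite directions between the groups when scaled to the percentile.

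Slc13a3, a dicarboxylate transporter, read 22.6, 33.4 and 22.9 in vehicle and 8.02, 6.75 and 3.13 in ADBAQ. It fell by 2.22 ± 0.37 on the log2 scale (SE; adjusted p = 0.0142, limma) and was at -1.47 under spike-in scaling. Avpr1a, the vasopressin receptor of pericentral hepatocytes, read 8.43, 8.04 and 7.19 in vehicle and 2.96, 2.50 and 2.64 in ADBAQ. It fell by 1.55 ± 0.11 (SE; adjusted p = 0.00164, limma) and was at -0.79 under spike-in scaling. Neither gene had overlapping groups, and both passed with every array left out. The remaining 3 that were lower, named after their values were seen, were Lect2 at -0.87, Gulo at -0.80 and Pon1 at -0.33. Under spike-in scaling Lect2 was at -0.11 (adjusted p = 0.434, limma), Gulo at -0.04 (adjusted p = 0.775, limma) and Pon1 at 0.42. Pon1 passed in none of the 6 cases with an array left out.

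Genes of the opposite, periportal end of the lobule were lower more uniformly. Of 16 measured periportal genes, 12 were lower and none higher, with a median of -0.73, against 5 of 9 and -0.55 for the Wnt targets; with spike-in scaling 2 were higher and 2 lower, with a median of 0.03. The difference between these lists was not tested. Apoa4, a periportal apolipoprotein, was at -3.08 ± 0.19 (SE; adjusted p = 0.00129, limma). Cps1, the entry enzyme of the urea cycle, was at -1.21 ± 0.14, Hal, which starts histidine breakdown, at -1.04 ± 0.11, and Ass1, a urea cycle enzyme, at -1.02 ± 0.12 (SE). All 4 passed with every array left out, and 8 to 11 periportal genes passed as lower in each such case, with 8 without ADBAQ replicate 2. Hepatocyte markers as a whole, 16 genes that include non-zonated ones, had 9 lower and 1 higher (5 or 6 lower with single arrays left out, and 4 with quantile normalization), with a median of -0.39; under spike-in scaling 3 were lower and 8 higher, with a median of 0.36. Their summed scaled signal was 10576 to 11360 in vehicle and 7585 to 7962 in ADBAQ. How far the Wnt targets moved with hepatocyte transcripts in general was not tested.

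**Figure D4:**
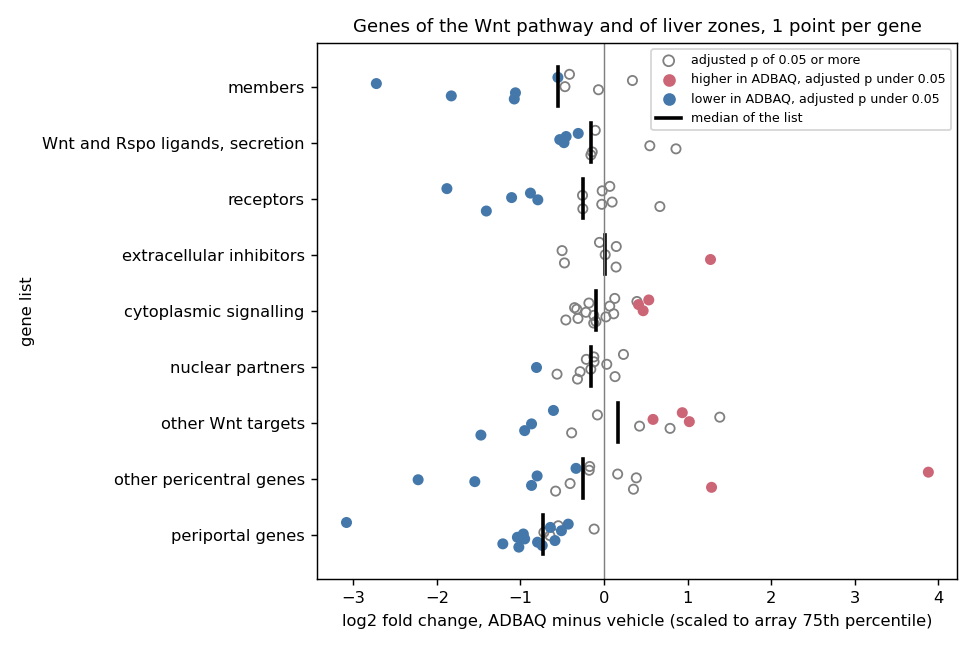
Log2 difference between ADBAQ and vehicle (horizontal axis, scaled to the array's 75th percentile) of each measured gene, grouped by its role in or around the Wnt pathway, with filled points for adjusted p under 0.05, open points for the others and a bar at each group's median. The periportal group has the lowest median, -0.73, followed by the Wnt target genes (first line) at -0.55, and the other groups lie closer to 0.

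Oat and Glul sit in the exchange of ornithine, glutamate and glutamine, and 25 of 27 other genes of that exchange were measured. Of these, 9 were lower, 2 higher and 14 did not pass, with a median of -0.46, while under spike-in scaling 11 were higher and none lower. Prodh, the mitochondrial proline oxidase, was at -1.22 ± 0.26 (SE; adjusted p = 0.0255, limma), and Got1, the cytosolic aspartate aminotransferase, at -1.01 ± 0.18 (SE; adjusted p = 0.0167, limma). Gls2, the liver glutaminase of periportal hepatocytes, was at -0.95 ± 0.09 (SE; adjusted p = 0.00347, limma), and Glud1, glutamate dehydrogenase, at -0.75 ± 0.15 (SE; adjusted p = 0.0224, limma); under spike-in scaling Gls2 was at -0.19 and Glud1 at 0.01. Both were named after their values were seen. The enzyme that makes glutamine and the liver enzyme that splits it were thus both lower when scaled to the percentile. The carriers went both ways. Slc38a3, a glutamine transporter of hepatocytes, was lower at -0.71 ± 0.08 (SE; adjusted p = 0.00643, limma; 0.04 under spike-in scaling) and passed with every array left out, while Slc38a5, another glutamine transporter, was higher at 1.16 ± 0.26 (SE; adjusted p = 0.0294, limma; 0.50 with normexp). Slc1a2, Slc38a4 and Slc38a2 did not pass, at -0.58, -0.46 and -0.30. Slc38a3 and these 3 were named after their values were seen. With single arrays left out, Got1 passed in 5 of 6 cases, Glud1 in 3, and Prodh and Slc38a5 in 2 each. Slc7a5, the large neutral amino acid carrier, did not rise well above background in any vehicle rat and passed the filter through the ADBAQ group alone. It is counted among the 2 that were higher, with a bound of at least 1.73-fold, but its test rests on vehicle values under background, and with normexp in place of the scanner's own background step the difference was 0.02 (adjusted p = 0.893). Over the list, 5 to 8 genes passed as lower with single arrays left out, and 5 did without vehicle replicate 3, ADBAQ replicate 1 or ADBAQ replicate 3.

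The named genes whose values followed a member most closely over the 6 arrays were found by the root mean square difference of log2 values, each gene centred on its own mean. This likeness is a description over 6 arrays that include the difference between groups. For Oat they were Aass at 0.143, Stard4 at 0.168 and Tpst1 at 0.185. Those nearest to Glul were Allc at 0.0809, Nxpe1 at 0.0891 and Rgs16 at 0.108, and those nearest to Axin2 were Avp at 0.0269, Gab2 at 0.0308 and Dnajb4 at 0.0700. Aass encodes the enzyme that starts lysine breakdown, and Stard4 a cholesterol carrier.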

How the data were processed

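The authors' deposited scanner files, made with Agilent Feature Extraction 10.7 per the submitters' processing notes (10.7.1.1 per the file headers), hold intensity values on a linear scale, background-subtracted in the processed signal, with flags (of the kind other) for spots above background. In the deposited series table the authors give a ratio, each processed signal over the 75th percentile of its array. Of the probes, 27460 were named through RefSeq accessions, giving 15284 genes, and 34197 were not named.

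Each processed signal was divided by its array's 75th percentile over non-control probes and put on a log2 scale. A probe was kept if every array of either group showed it well above background (38695 probes, 11344 named genes). The test was lmFit and eBayes of limma 3.58.1, run in R 4.3.3, with Benjamini-Hochberg adjustment over all kept probes and a threshold of 0.05; SEs and 95% intervals come from that fit. A gene is read by its brightest probe unless stated. An exact permutation test of 3 against 3 rats cannot go below p = 0.1. For a probe not well above background in a group, the fold is a bound against the higher of the array's lowest signal above background and the probe's own signal. The procedure was tested on simulated data, where it recovered 90% of changes of 2 on the log2 scale and 53% of changes of 1. A gene that did not pass is therefore not shown to be unchanged.

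The members, lists and rules were chosen with earlier results of these data known. Named are the 10 members, up to 4 called genes per list with the largest differences, the ligands, receptors and core genes given by name, the 3 genes most like Oat, Glul and Axin2, and Alb. The 17 alternatives covered background correction (normexp, offset 50, on the median spot signal, since the mean spot signal was not used here), scaling (quantile, median, 8 spike-in probes), filters, the series table, array weights, the variance model, a replicate block, averaging over a gene's probes, and each array left out. With 1 group per slide, no slide block could be fitted.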

Additional observations from a re-analysis of the deposited data

How the results depend on the processing

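Oat and Notum passed as lower under all 17 alternatives, and Cyp2e1 under all but spike-in scaling. The number of members called was 5, and 4 to 6 under the alternatives. Over all named genes the count was 2308; it was 4049 with normexp (34.4% of them higher, against 44.5%), 3530 with no filter on dim probes (32.4% higher), 9130 with spike-in scaling (97.9% higher), and 922 to 1565 with single arrays left out, where fewer samples remain. Spike-in scaling turned the sign of Alb (0.41), Apc (0.66), Axin1 (0.44), Axin2 (0.69), Ctnnb1 (0.63), Fzd4 (0.73), Lgr5 (0.29), Lrp6 (0.50), Porcn (0.45), Rgn (0.34), Rnf43 (0.20), Rspo3 (0.30), Wnt11 (0.23) and Wnt9b (0.28). Quantile normalization turned Alb (0.067) and Fzd4 (0.0025), median centring turned Fzd4 (0.0082), and the mean of probes turned Fzd4 (0.15). With single arrays left out Axin2 ranged from -0.19 to 0.11 and Fzd4 from -0.16 to 0.14. Why these values moved was not tested beyond the shift that a scaling makes by construction.

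Replicate numbers are shared by the groups, but same-numbered arrays did not deviate together (correlations of -0.029, -0.020 and -0.0046), so they share only a number. With the replicate block 982 named genes and 4 members passed, and Rnf43 missed the threshold (adjusted p = 0.0509, limma). Dim probes moved with the background step: Slc7a5, at 1.70 in the test as reported, was at 0.02 with normexp, and Sp5 moved from -1.47 to -0.70. Normexp was run with an added offset of 50, and the part of that offset in these shifts was not tested.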
